A study of Mus musculus with 10 samples.

Results

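Genes whose ends lie next to each other share a stretch of chromatin, and the 2008 pairs of protein-coding autosomal genes whose nearest ends lie 1 kb or less apart without overlapping are described here. Pairs were found in the RefSeq gene table of the assembly GRCm38.p6, which mm10 names, and 3604 of 20556 genes belong to them, 407 of them to 2 or more pairs. Strand, known for 16456 of the genes, divided the pairs into 565 divergent pairs, with both starts facing each other across the gap, 422 convergent pairs, with both transcript ends facing each other, and 448 tandem pairs, with the end of a gene facing the start of the next. For 573 pairs the strand of at least 1 gene was not known. They are set against 21629 isolated gene ends, which have no end of another protein-coding gene within 10 kb, among 41112 gene ends in all. Of these, 9144 were isolated starts and 8040 were isolated ends of the opposite kind, called other ends.

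The study mapped nucleophosmin (NPM1) and histone H3 trimethylated at lysine 4 (H3K4me3) in mouse macrophages by CUT&Tag, in which an antibody directs a transposase that cuts and tags the DNA beside its target. The NPM1 libraries are WT cardiac macrophages at day 3 after myocardial infarction (infarct) and at day 3 after a sham operation (sham), and WT bone marrow-derived macrophages given 20 ng/ml IL-4 for 12 hours (IL-4) or left untreated (untreated), both derived with M-CSF at 50 ng/ml over 7 days. The H3K4me3 libraries are cardiac macrophages at day 3 after infarction from Npm1-cKO mice (KO), a conditional knockout of Npm1, and from WT mice (WT). The sources used here do not give the Cre driver of the knockout or how many mice a library holds. Of the 10 libraries, each the only one of its group, 6 have a peak list analysed here, so the spread between replicates is unknown and p-values are not given.

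A divergent gene pair is usually served by a bidirectional promoter, a CpG-rich stretch between the starts from which polymerase leaves in both directions. Such promoters are known for housekeeping genes, among them many of DNA repair and of mitochondria. H3K4me3 is deposited on nucleosomes that flank active starts, so that a shared promoter carries it on both sides. NPM1 is an abundant nucleolar protein and histone chaperone that also enters the nucleoplasm.

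The sequences between the starts of 9 divergent pairs show what such gaps hold, and are given here in lower case on the + strand, from the left gene's start to the right gene's, with RefSeq's letters for GRCm38.p6. Capitals mark matches, read on either strand, to the 6 motifs counted further on, most often CCAAT and the Sp1 core GGGCGG. The first 6 pairs had infarct, IL-4 and H3K4me3 peaks, Sdha/Ccdc127 had H3K4me3 peaks without NPM1, and the last 2 had no peak in any list. The 9 are examples, and no link between matches and peaks is read from them. The gap of Tpmt/Kdm1b, a pair with infarct, IL-4 and H3K4me3 peaks, holds no match. That of Cir1/Scrn3, with H3K4me3 peaks and without NPM1, holds a GGGCGG match.
Atm/Npat, chr9:53536829-53536888: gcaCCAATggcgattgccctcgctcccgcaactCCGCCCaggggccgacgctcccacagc
Brca1/Nbr1, chr11:101551956-101552106: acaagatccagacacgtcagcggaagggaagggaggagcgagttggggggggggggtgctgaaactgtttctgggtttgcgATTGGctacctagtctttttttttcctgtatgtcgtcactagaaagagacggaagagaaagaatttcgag
Fkbp3/Fancm, chr12:65073939-65074109: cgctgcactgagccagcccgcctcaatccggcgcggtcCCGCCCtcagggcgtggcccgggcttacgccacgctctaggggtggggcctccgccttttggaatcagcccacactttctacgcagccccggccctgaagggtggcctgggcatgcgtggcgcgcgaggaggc
Npc2/Isca2, chr12:84773113-84773229: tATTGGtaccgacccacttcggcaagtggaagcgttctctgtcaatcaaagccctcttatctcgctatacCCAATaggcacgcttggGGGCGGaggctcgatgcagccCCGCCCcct
Mrps12/Sars2, chr7:28741822-28741956: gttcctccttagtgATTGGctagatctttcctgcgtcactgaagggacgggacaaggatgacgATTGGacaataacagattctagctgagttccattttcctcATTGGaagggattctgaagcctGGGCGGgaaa
Ranbp1/Trmt2a, chr16:18248695-18248846: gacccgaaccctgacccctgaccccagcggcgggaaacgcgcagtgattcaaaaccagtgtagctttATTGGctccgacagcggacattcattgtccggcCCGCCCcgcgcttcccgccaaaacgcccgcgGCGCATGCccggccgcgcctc
Sdha/Ccdc127, chr13:74350241-74350316: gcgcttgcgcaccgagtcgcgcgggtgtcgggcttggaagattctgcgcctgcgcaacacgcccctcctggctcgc
Duox2/Duoxa2, chr2:122298741-122298899: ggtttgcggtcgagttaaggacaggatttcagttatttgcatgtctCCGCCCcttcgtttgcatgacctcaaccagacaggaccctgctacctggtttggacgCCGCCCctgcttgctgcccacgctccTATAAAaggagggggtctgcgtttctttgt
Ngef/Neu2, chr1:87573871-87574026: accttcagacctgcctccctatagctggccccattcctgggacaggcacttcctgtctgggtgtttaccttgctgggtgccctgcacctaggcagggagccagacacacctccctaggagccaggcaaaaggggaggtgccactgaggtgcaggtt

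The lists held 79893 peaks for infarct, 58011 for sham, 104514 for IL-4, 58989 for untreated, 52977 for KO H3K4me3 and 73321 for WT H3K4me3. Total reads are not given, but the deposited fold and p of a peak fix the background read pileup, which was 3.03, 1.29, 4.18, 1.31, 2.49 and 2.92 reads per position in the same order. The sham and untreated libraries were thus shallower. Where a list has no peak, none was called there, which does not show that the target was absent. The part of depth in missing peaks was not tested. A peak lay within 1 kb of an end of 10, 1, 10, 0, 10 and 8 of 10 macrophage marker genes in that order. Of 6 cardiomyocyte markers 1, 0, 1, 0, 0 and 0 had such a peak, of 5 endothelial markers 2, 0, 4, 0, 3 and 1, of 5 fibroblast markers 0, 1, 2, 0, 3 and 1, of 5 neutrophil markers 1, 1, 1, 0, 1 and 2, of 4 T cell markers 2, 0, 2, 0, 2 and 2, and of 4 B cell markers 1, 0, 0, 0, 1 and 0. Their part in the results below was not tested. Each library was bulk chromatin, in which a target bound in fewer cells and one bound less in each cell cannot be told apart.

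Each pair was given a window of 1 kb on either side of the midpoint of its gap, 2001 bp in all, and each isolated end a window of the same length around it. Pairs of all classes had an infarct peak in 1152 of 2008 cases (57.4%), a sham peak in 132 (6.57%), an IL-4 peak in 1150 (57.3%), an untreated peak in 95 (4.73%), a KO H3K4me3 peak in 1291 (64.3%) and a WT H3K4me3 peak in 1193 (59.4%). Over all 41112 gene ends the shares were 31.0%, 6.26%, 31.3%, 3.55%, 37.3% and 33.8% in the same order. Divergent pairs carried NPM1 and H3K4me3 more often than isolated starts did in the 4 deeper lists. An infarct NPM1 peak overlapped the window of 492 of 565 divergent pairs (87.1%, exact 95% binomial interval 84.0 to 89.7%), against 3584 of 9144 isolated starts (39.2%, 38.2 to 40.2%). The share over all 16456 gene starts with a known strand was 48.2% for infarct, 5.71% for sham, 48.3% for IL-4, 4.65% for untreated, 61.1% for KO H3K4me3 and 56.1% for WT H3K4me3. An IL-4 NPM1 peak was also found at 492 of 565 divergent pairs, against 39.3% of isolated starts. The KO H3K4me3 list marked 542 of 565 divergent pairs (95.9%, 94.0 to 97.4%) against 53.2% of isolated starts, and the WT H3K4me3 list 534 (94.5%, 92.3 to 96.2%) against 47.8%. These intervals cover counting error only. The window of a divergent pair holds 2 starts where that of an isolated start holds 1. If each of 2 starts carried a peak at the isolated share, independently of the other, 63.0% of windows would hold one in infarct, 63.2% in IL-4, 78.1% in KO H3K4me3 and 72.8% in WT H3K4me3, and the shares of divergent pairs lay above these values. For sham the value is 10.8% and for untreated 8.83%, both above the shares of divergent pairs.

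Over the whole window of divergent pairs the shallower NPM1 lists showed no excess over isolated starts beyond counting error. A sham peak was found at 27 of 565 divergent pairs (4.78%, 3.17 to 6.88%), against 5.58% of isolated starts (5.12 to 6.07%). An untreated peak was found at 36 divergent pairs (6.37%, 4.50 to 8.71%), against 4.52% of isolated starts (4.10 to 4.96%). In both lists these intervals of pairs and isolated starts overlap, which does not show that an excess is absent. At the midpoint of the gap itself, sham peaks covered 1.24% of divergent pairs, against 0.634% of isolated starts at the start. Untreated peaks covered 3.01% and 1.09% there. With peaks of −log10 q of 5 or more, where q is the authors' adjusted p of the peak against the background of its library, divergent pairs and isolated starts were marked at 66.4% and 22.2% in infarct, 0% and 0.339% in sham, 65.7% and 23.3% in IL-4, 0.177% and 0.164% in untreated, 95.8% and 49.6% in KO H3K4me3, and 91.2% and 35.7% in WT H3K4me3. The −log10 q and the extent of a peak are the authors' values, and they rank peaks within a list only, also where values of several lists stand side by side.

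**Figure D1:**
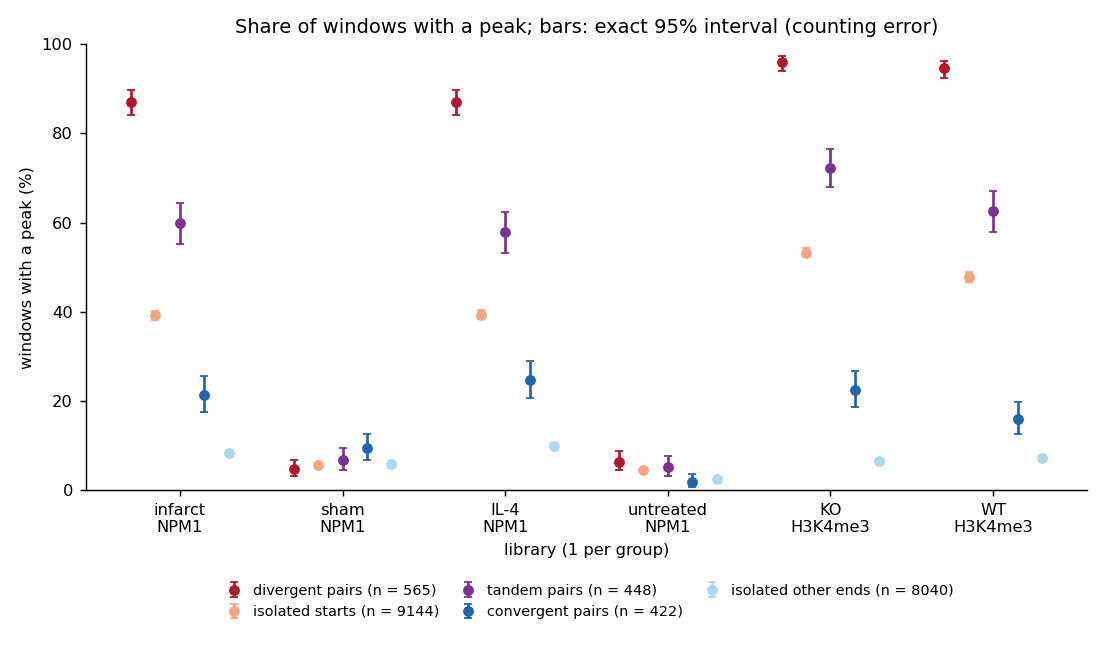
Share of windows with a peak (%, vertical axis) in each of the 6 libraries (horizontal axis), for divergent pairs, isolated starts, tandem pairs, convergent pairs and isolated other ends. Points are shares and bars exact 95% binomial intervals for counting error. In the infarct, IL-4, KO and WT libraries divergent pairs lie highest, at 87.1%, 87.1%, 95.9% and 94.5%, and isolated other ends lowest, while in the sham and untreated libraries no class exceeds 9.48%.

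Peaks at divergent pairs also covered more of the window. Among windows with a peak, the median length covered by infarct NPM1 was 765 bp at divergent pairs (95% interval of the median 728 to 806 bp), against 588 bp at isolated starts (570 to 605 bp). For IL-4 the medians were 742.5 bp (702 to 776 bp) and 583 bp (566 to 599 bp). H3K4me3 covered 1581.5 bp at divergent pairs (1537 to 1619 bp) and 1208 bp at isolated starts (1197 to 1218 bp) in KO, and 1040.5 bp (996 to 1081 bp) and 796 bp (780 to 809 bp) in WT. The sham medians were 200 bp at divergent pairs and 207 bp at isolated starts, close to the smallest peak width of 200 bp, and the untreated medians were 261.5 and 217 bp.

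**Figure D2:**
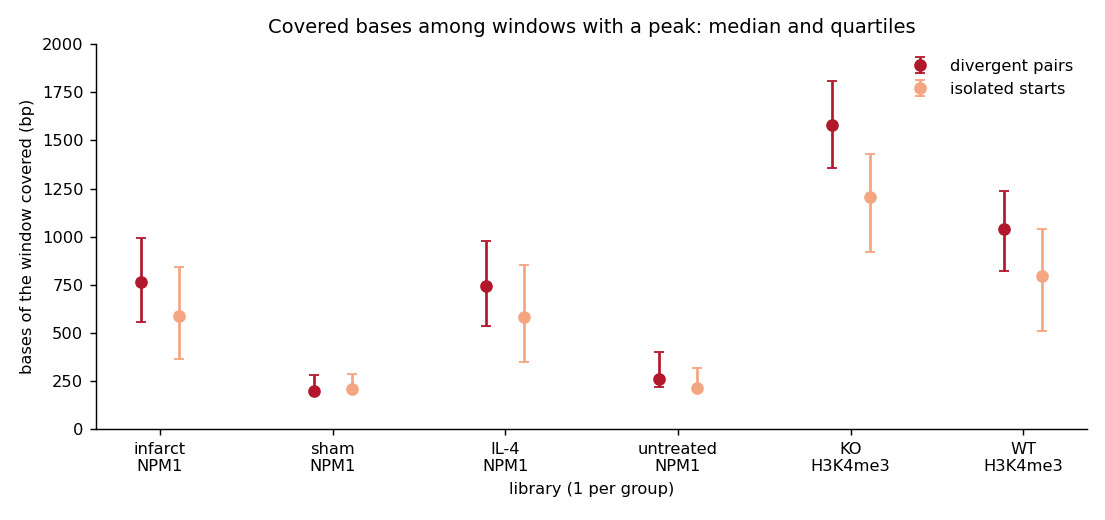
Bases of the 2001-bp window covered by peaks (bp, vertical axis) in each library (horizontal axis), among windows with a peak. Points are medians and bars the lower and upper quartiles, for divergent pairs and isolated starts. The medians of divergent pairs are higher in the infarct, IL-4, KO and WT libraries, where 765, 742.5, 1581.5 and 1040.5 bp stand against 588, 583, 1208 and 796 bp, and lie near 200 bp in sham.

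In the 4 deeper lists most peaks of divergent pairs spanned both starts. The gap had a median of 100 bp (quartiles 48 and 234 bp), and a peak reached over both gene ends at 394 of the 492 pairs with infarct NPM1 (80.1%), 399 of 492 with IL-4 NPM1 (81.1%), 508 of 542 with KO H3K4me3 (93.7%) and 453 of 534 with WT H3K4me3 (84.8%). Sham peaks did so at 5 of 27 pairs (18.5%) and untreated peaks at 7 of 36 (19.4%). The summit of the highest peak lay a median of 126 bp from the midpoint of the gap in infarct and 114 bp in IL-4, against 166 and 161.5 bp from the start at isolated starts. The summit fell within the gap at 26.6% of pairs in infarct, in the left gene at 189 and in the right gene at 172. At each base around the gap, coverage by infarct peaks was highest 100 bp left of the midpoint, at 75.6% of divergent pairs, and it was 25.7% and 26.7% at 500 bp to the left and the right. At isolated starts it was 5.96% at 500 bp upstream and 12.5% at 500 bp downstream. KO H3K4me3 covered 80.9% and 80.0% of divergent pairs at 500 bp to the left and the right, against 14.9% and 44.8% of isolated starts at 500 bp upstream and downstream, so that the coverage of pairs was alike on both sides where that of isolated starts lay mostly inside the gene.

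**Figure D3:**
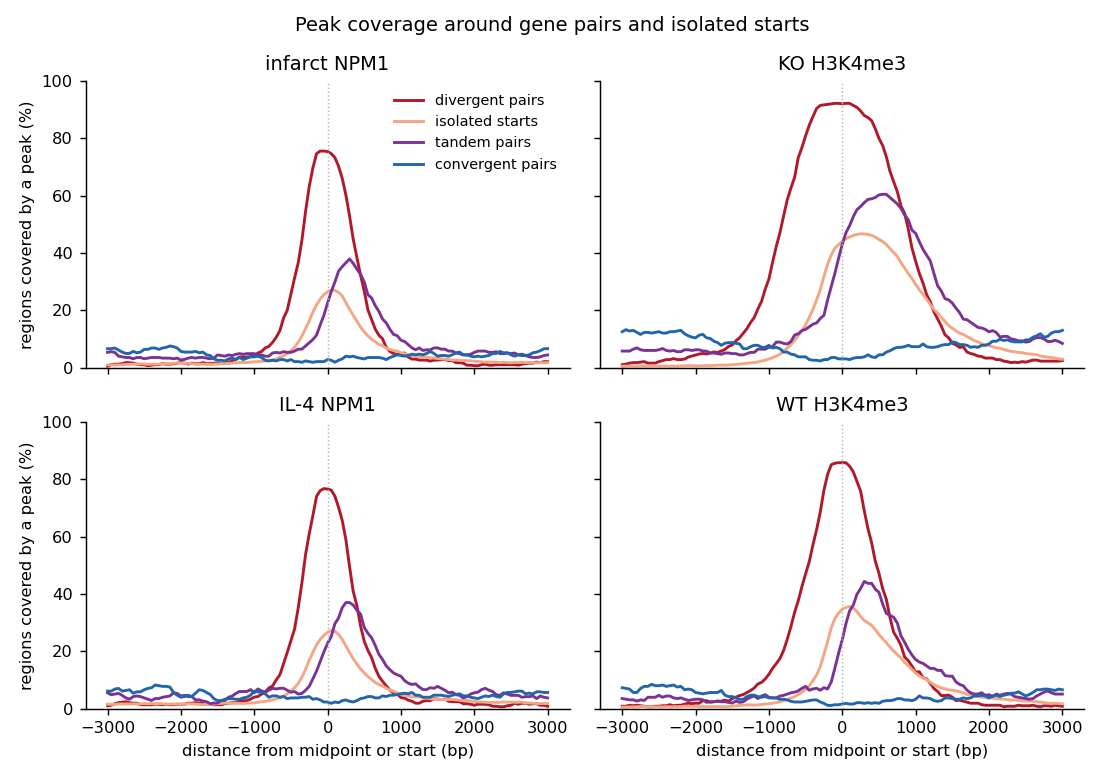
Share of regions covered by a peak (%, vertical axis) at each distance (bp, horizontal axis) from the midpoint of the gap, or from the start at isolated starts, in the infarct, IL-4, KO and WT libraries. Lines stand for divergent, tandem and convergent pairs and isolated starts. For tandem pairs and isolated starts the axis follows transcription, and divergent and convergent pairs run along the + strand. Divergent pairs form a symmetrical peak at 0, with 75.6% covered in infarct and 92.2% in KO at the highest point, tandem pairs peak inside the downstream gene, and convergent pairs are lowest near 0.

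A peak over both starts was least frequent at gaps over 500 bp. Infarct NPM1 reached over both starts at 81.2% of the marked pairs with gaps up to 100 bp, 87.8% with gaps of 101 to 250 bp, 78.2% with gaps of 251 to 500 bp and 40.0% with gaps of 501 to 1000 bp. For KO H3K4me3 the shares were 98.9%, 95.9%, 92.9% and 47.2%. The share of pairs with an infarct peak at all was 86.6%, 89.7%, 91.8% and 71.4% over the same gaps, with 283, 155, 85 and 42 pairs.

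Convergent pairs, where both transcript ends meet, were marked less often than divergent pairs and more often than isolated other ends in the 4 deeper lists. Infarct NPM1 was found at 90 of 422 convergent pairs (21.3%, 17.5 to 25.5%), against 8.45% of isolated other ends (7.85 to 9.07%). Over all other ends with a known strand the share was 14.3% in infarct, 6.81% in sham, 15.2% in IL-4, 2.57% in untreated, 13.9% in KO H3K4me3 and 12.1% in WT H3K4me3. IL-4 NPM1 was found at 24.6% of convergent pairs and 9.98% of isolated other ends, KO H3K4me3 at 22.5% and 6.50%, and WT H3K4me3 at 15.9% and 7.15%. A sham peak was found at 9.48% of convergent pairs (6.86 to 12.7%) and 5.92% of isolated other ends (5.41 to 6.46%), and an untreated peak at 1.90% and 2.46%. A convergent window holds 2 other ends, and 2 independent ends at the isolated share would give 16.2% in infarct, 19.0% in IL-4, 12.6% in KO H3K4me3 and 13.8% in WT H3K4me3. The last of these lies within the interval of convergent pairs in WT H3K4me3 (12.5 to 19.7%). For sham the value is 11.5% and for untreated 4.86%, both above the shares of convergent pairs. The peaks at convergent pairs were short and lay away from the gap. Their median covered length was 267.5 bp in infarct against 272 bp at isolated other ends, the summit lay a median of 646.5 bp from the midpoint, and a peak reached over both ends at 1 of 90 pairs. In KO H3K4me3 the summit lay a median of 937 bp away, and 40.0% of the summits were outside the window. With −log10 q of 5 or more the infarct share was 3.55% against 1.04%. The difference of 12.9 percentage points in infarct became 2.51 with such peaks alone, 7.36 with windows of 500 bp on either side, 6.74 with lists of equal length and 4.53 among windows with WT H3K4me3. A start listed in RefSeq lay within 1 kb of the midpoint in 9 of the 422 pairs, of which 5 had an infarct peak, and the share without them was 20.6% (85 of 413).

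Among convergent pairs with H3K4me3 of the highest −log10 q, Kank3/Rps28 carried a value of 151 in KO and 0.747 in WT, over 675 and 301 bp of the window, and no NPM1 peak. Rps28 encodes a protein of the small ribosomal subunit. At Rps21/Cables2, which holds the gene of another such protein, infarct NPM1 covered 172 bp with a −log10 q of 13.1 and IL-4 NPM1 155 bp with 14.7, with no sham or untreated peak. The histone pair H2ac21/H2ac20 had the highest infarct value of convergent pairs without a predicted gene, 17.3 over 513 bp, with 13.2 over 708 bp in IL-4, no sham and no untreated peak. KO H3K4me3 covered the whole window there, 2001 bp, and WT H3K4me3 1265 bp. Pairs with a listed start within 1 kb of the midpoint were not set apart when pairs were named. Whether the peaks of H2ac21/H2ac20 lie at a start was not tested. Rpl7a/Surf1 and Tsc1/Spaca9 had no peak in any list at their convergent ends.

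Tandem pairs lay between the classes, and their peaks sat at the downstream start. Infarct NPM1 was found at 268 of 448 tandem pairs (59.8%, 55.1 to 64.4%), IL-4 NPM1 at 57.8%, KO H3K4me3 at 72.3% and WT H3K4me3 at 62.5%, against 39.2%, 39.3%, 53.2% and 47.8% of isolated starts. The highest summit was nearer to the start than to the other end of the gap at 225 of 268 pairs in infarct (84.0%), 218 of 259 in IL-4 (84.2%), 288 of 324 in KO (88.9%) and 250 of 280 in WT (89.3%). The median length covered by infarct peaks was 520 bp, below the 588 bp of isolated starts. The 573 pairs without a known strand had an infarct peak in 52.7%, a sham peak in 6.11%, an IL-4 peak in 51.5%, an untreated peak in 4.89%, a KO H3K4me3 peak in 57.6% and a WT H3K4me3 peak in 54.5%. Isolated ends without a known strand had one in 25.8%, 5.94%, 25.5%, 3.71%, 33.0% and 29.4% in the same order.

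NPM1 and H3K4me3 stood together at divergent pairs. Of the 534 divergent pairs with H3K4me3 in WT infarct macrophages, 487 had an infarct NPM1 peak (91.2%, 88.5 to 93.5%), against 3275 of 4371 isolated starts with the mark (74.9%, 73.6 to 76.2%). Of the 31 divergent pairs without the mark, 5 had NPM1 (16.1%, 5.45 to 33.7%), against 6.47% of isolated starts without it (5.79 to 7.21%). Within strata of the H3K4me3 −log10 q the gap between pairs and isolated starts was narrower. It was 91.8% (88.6 to 94.4%) against 84.4% (82.9 to 85.7%) at values of 5 to 20, and 95.9% (91.2 to 98.5%) against 96.6% at 20 to 50. For IL-4 NPM1, mapped in other cells, the shares were 90.8% against 82.3% and 97.2% against 95.9%. Of all divergent pairs 467 of 565 (82.7%) had infarct, IL-4 and both H3K4me3 peaks, against 31.5% of isolated starts. Over all 16456 starts with a known strand the share was 40.0%.

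**Figure D4:**
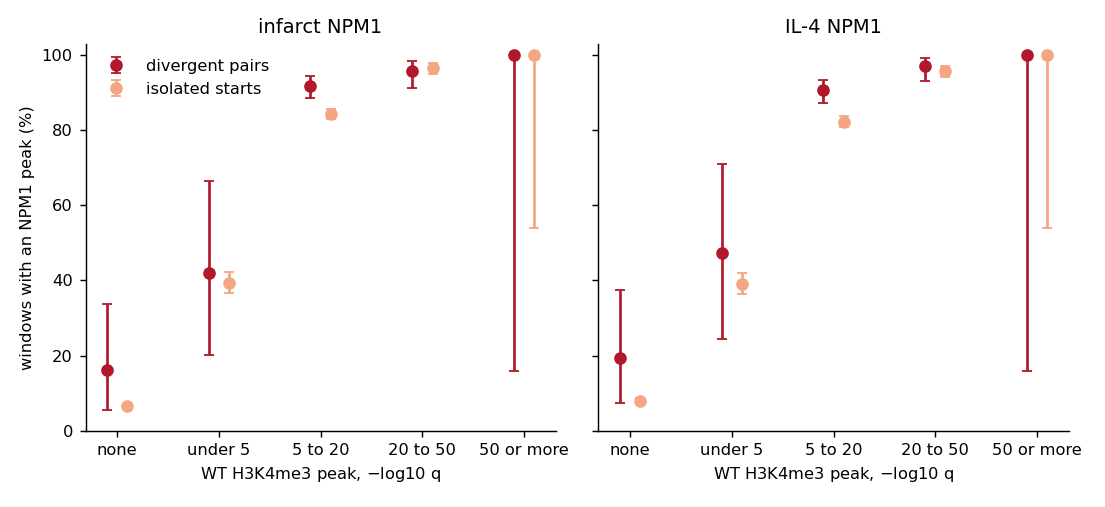
Share of windows with an NPM1 peak (%, vertical axis) by the −log10 q of the WT H3K4me3 peak in the window (horizontal axis), for divergent pairs and isolated starts, in the infarct and IL-4 libraries. Bars are exact 95% binomial intervals for counting error. The shares rise with H3K4me3 in both, from 16.1% and 6.47% without the mark in infarct to 95.9% and 96.6% at 20 to 50, and the last class holds only 2 pairs and 6 isolated starts.

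The study compared NPM1 after infarction with sham. At divergent pairs 469 of 565 had a peak in infarct only (83.0%), 4 in sham only and 23 in both, where the infarct-only share of all starts was 45.0% and the sham-only share 2.51%. The infarct peak covered more bases than the sham peak at all 23 shared pairs, with medians of 910 and 200 bp. At convergent pairs 74 of 422 had a peak in infarct only, 24 in sham only and 16 in both, where 11.9% of all other ends had a peak in infarct only and 4.40% in sham only. Over all 2008 pairs the counts were 1071, 51 and 81, against shares of all gene ends of 28.2% for infarct only and 3.41% for sham only. With peaks of −log10 q of 5 or more 701 pairs had a peak in infarct only and 1 in sham only. The infarct library had 3.03 reads per position in the background and the sham library 1.29, so these counts do not measure a change at a pair.

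Ubxn6/Hdgfl2, which joins the gene of a cofactor of the p97 segregase with that of a chromatin reader (chromosome 17, gap of 265 bp), had the highest infarct value of the divergent pairs. Here and below, 121 pairs are passed over when pairs are named by their values. They hold a predicted gene or an olfactory or vomeronasal receptor gene, and passed-over receptor genes are of these 2 kinds only. NPM1 had a −log10 q of 106 over 915 bp in infarct and no sham peak, and 107 over 889 bp in IL-4 against 3.18 over 509 bp in untreated. The pair also led the IL-4 list. Fkbp3/Fancm followed in infarct with 64.9 over 818 bp, against 0.863 over 200 bp in sham. Fancm encodes the DNA translocase of the Fanconi anaemia pathway. Tcta/Rhoa, with the gene of the small GTPase RhoA, reached 63.9 over 1202 bp in infarct with no sham peak, and its 2 genes abut with a gap of 0 bp. Npc2/Isca2 reached 55.6 over 918 bp in infarct and 57.2 over 760 bp in IL-4, with no peak in sham or in untreated. Npc2 carries cholesterol out of lysosomes and Isca2 assembles mitochondrial iron-sulphur clusters. Among tandem pairs the highest infarct values were 67.1 at Abtb1/Podxl2 and 62.8 at Daxx/Zbtb22, neither with a sham peak.

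Sham peaks were weak at divergent pairs. The highest −log10 q of a divergent pair in sham was 4.46 at Dzip3/Cip2a, over 273 bp, against 3.33 over 695 bp in infarct, and the next was 3.33 at Srd5a1/Nsun2, against 32.9 in infarct. Maneal/Epha10 had a sham peak of 236 bp with 2.06 and none in infarct.

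IL-4-treated and untreated macrophages of the bone marrow were compared in the same way. At divergent pairs 456 of 565 had an NPM1 peak in IL-4 only (80.7%), 0 in untreated only and 36 in both, where the shares of all starts were 44.9% and 1.22%. The IL-4 peak was the wider at 35 of the 36 shared pairs, with medians of 929 and 261.5 bp. At convergent pairs 102 had a peak in IL-4 only, 6 in untreated only and 2 in both, against 14.0% and 1.37% of all other ends. Over all pairs the counts were 1071, 16 and 79, against 29.1% and 1.30% of all gene ends. The background was 4.18 reads per position in IL-4 and 1.31 in untreated. Gamt/Dazap1 and the histone pair H2ac22/H2bc22 had the highest untreated values of divergent pairs without a predicted gene, both 3.47, against 31.4 and 10.5 in IL-4. Tpmt/Kdm1b, which holds the gene of a histone H3 lysine 4 demethylase, had 65.9 over 962 bp in IL-4 against 2.72 over 411 bp in untreated, and 50.5 over 826 bp in infarct against 1.41 over 200 bp in sham.

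The infarct and IL-4 lists marked 470 divergent pairs in common, which is 95.5% of each. In infarct only there were 22 pairs (3.89%), and in IL-4 only 22. Over all 16456 starts with a known strand, 87.4% of those marked in infarct and 87.2% of those marked in IL-4 were shared. There, 6.10% of starts were in infarct only and 6.19% in IL-4 only. The 44 divergent pairs in infarct only or in IL-4 only had weak peaks. Their highest −log10 q was 5.38 in infarct, at Cops2/Galk2 and at Crnkl1/Cfap61, and 7.13 in IL-4, at Mup19/Mup-ps16.

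KO and WT H3K4me3 marked nearly the same divergent pairs and differed in width. Both lists had a peak at 534 of 565 divergent pairs, 8 had one in KO only and 0 in WT only, where the shares of all starts were 7.55% in KO only and 2.63% in WT only. At the 534 shared pairs KO H3K4me3 covered a median of 1586.5 bp and WT H3K4me3 1040.5 bp, and KO was the wider at 527, WT at 5, with 2 equal. The median difference was 484 bp, against 408 bp at the 4124 isolated starts with both peaks, where KO was the wider at 4012. Peaks of the whole lists were also wider in KO, with medians of 438 and 290 bp, while the background was 2.49 reads per position in KO and 2.92 in WT. The KO peaks also stood higher over their background. Among divergent pairs with a peak, the median fold was 8.23 in KO and 5.88 in WT, and the median −log10 q 114 and 14.9. Of these pairs, 13.3% in KO and 34.3% in WT held 2 or more peaks in the window. The part of these differences between the libraries in the width was not tested. At convergent pairs 57 of 422 had a peak in KO only, 29 in WT only and 38 in both, against 6.76% and 4.94% of all other ends. Over all pairs the counts were 161, 63 and 1130, against 7.41% and 3.86% of all gene ends.

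**Figure D5:**
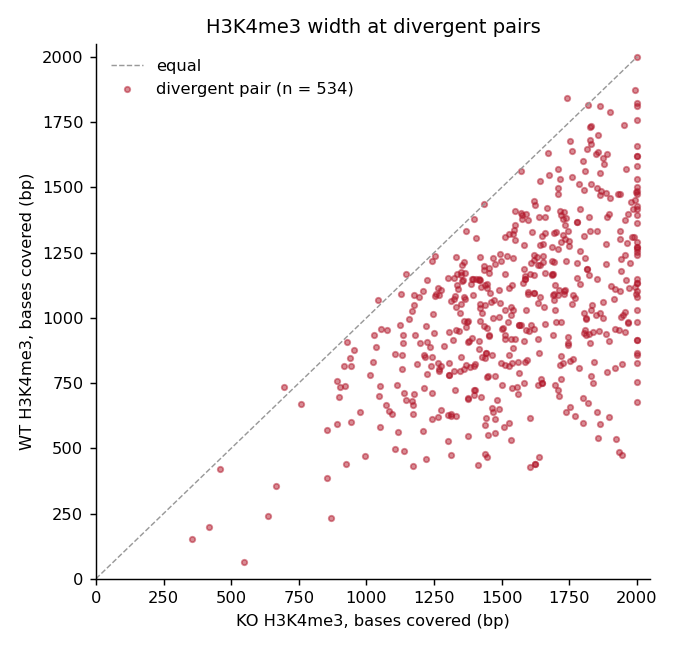
Bases of the 2001-bp window covered by H3K4me3 peaks in the KO library (bp, horizontal axis) and the WT library (bp, vertical axis) at the 534 divergent pairs with a peak in both, each a point. The dashed line marks equal cover. KO covers more at 527 pairs, which lie below the line.

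Among divergent pairs named in this way the highest KO H3K4me3 value was 247, at Pus7l/Irak4, whose Irak4 encodes a kinase of Toll-like receptor signalling, over 1375 bp against 32.7 over 989 bp in WT. Exosc1/Zdhhc16 followed with 246 over 1362 bp in KO, against 43.0 over 805 bp in WT. The highest WT value among them was 50.6 at Hdlbp/Septin2, over 1811 bp, where KO covered the whole window with 174.

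The 8 divergent pairs with H3K4me3 in KO only follow. At Stat5b/Stat5a, the genes of a pair of cytokine-activated transcription factors on chromosome 11 with a gap of 346 bp, a KO peak with a −log10 q of 126 reached only 260 bp into the window, and a WT peak lay within 5 kb of the midpoint but outside the window. NPM1 peaks there, with 17.9 in infarct and 13.9 in IL-4, reached 90 and 49 bp into the window. Mdh1b/Fastkd2 had 53.0 over 1392 bp in KO, and Il17rb/Chdh, with the gene of a receptor chain for IL-25, had 27.9 over 906 bp. Neither had a peak in any other list. Lrrc74b/P2rx6 had 12.2, Obsl1/Inha 7.51, Rec114/Hcn4 and H2bc1/H2ac1 5.01 each, and Mast1/Rtbdn 1.56. Apart from Mdh1b/Fastkd2 and Il17rb/Chdh these pairs were named after their values were seen.

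Gene groups are described by lists chosen with earlier results of these data known, beside a share of 17.5% of all genes in pairs. Their counts of marked divergent pairs are to be read beside those of all divergent pairs, 87.1% in infarct, 4.78% in sham, 87.1% in IL-4, 6.37% in untreated, 95.9% in KO H3K4me3 and 94.5% in WT H3K4me3, and with at most 23 divergent pairs a list nothing particular to a list is read from them. Of 84 listed genes of DNA repair and replication 32 (38.1%) were in 39 pairs, of which 20 were divergent. Infarct NPM1 was found at 17 of the 20, sham NPM1 at 1, IL-4 NPM1 at 18, untreated NPM1 at 2, KO H3K4me3 at 20 and WT H3K4me3 at 20, with a median infarct length of 721 bp, against 765 bp over all divergent pairs with a peak. At Atm/Npat, whose genes encode the kinase of the DNA damage response and a coactivator of histone genes, infarct NPM1 covered 751 bp with a −log10 q of 37.3 and IL-4 NPM1 703 bp with 26.2, and sham and untreated had no peak. KO H3K4me3 covered 1992 bp with 98.7 there, and WT H3K4me3 1118 bp with 30.1. At Brca1/Nbr1, of homologous recombination and selective autophagy, infarct NPM1 covered 1347 bp with 40.7 and IL-4 NPM1 1248 bp with 28.0, without sham or untreated peaks. Pcna/Cds2, with the gene of the sliding clamp of replication, had 43.6 over 920 bp in infarct and 37.0 over 847 bp in IL-4, again with neither control peak. Xrcc3/Zfyve21 had 15.2 in infarct and 11.2 in IL-4, and Wrap53/Trp53, which holds the gene of p53, 4.82 and 8.83. The sequences of Atm/Npat and Brca1/Nbr1 printed above each hold a CCAAT match.

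Mitochondrial genes followed. Of 93 respiratory chain subunits 46 (49.5%) were in 49 pairs, 23 of them divergent, and infarct NPM1 was found at 19 of the 23, sham at 1, IL-4 at 19, untreated at 2, and KO and WT H3K4me3 at 23 each. Of 78 mitochondrial ribosomal proteins 30 (38.5%) were in 34 pairs, 16 of them divergent, with infarct NPM1 at 15, sham at 0, IL-4 at 14, untreated at 0, and KO and WT H3K4me3 at 16 each. Ndufaf3/Dalrd3, with the gene of an assembly factor of complex I, had 45.1 over 1092 bp in infarct and 34.7 over 1363 bp in IL-4. Mrps18b/Ppp1r10 had 46.0 over 1094 bp in infarct and 33.1 over 1029 bp in IL-4. Mrps12/Sars2, which joins a ribosomal protein to a tRNA synthetase of mitochondria, had 8.67 over 573 bp in infarct and 3.44 over 537 bp in IL-4. None of these had a sham or untreated peak.

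Cytosolic ribosomal proteins had 22 of 81 genes in 29 pairs, of which 9 were divergent, with infarct NPM1 at 8, sham at 0, IL-4 at 8, untreated at 0, and KO and WT H3K4me3 at 8 each. Aminoacyl-tRNA synthetases had 13 of 33 genes in 15 pairs, of which 6 were divergent, with infarct NPM1 at 5, IL-4 at 6, sham and untreated at 0, and H3K4me3 at 6 in KO and in WT. Proteasome subunits had 17 of 50 genes in 21 pairs, and all 7 divergent ones had infarct, IL-4, KO and WT peaks and no sham or untreated peak. Psmb9/Tap1, which joins an immunoproteasome subunit to the transporter that loads peptides for class I presentation, had NPM1 at 21.4 over 933 bp in infarct and peaks over 1363 bp in IL-4, with none in sham or untreated. Its H3K4me3 covered 1930 bp in KO and 1475 bp in WT.

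Chaperones had 15 of 42 genes in 18 pairs, with 7 divergent, all of them with infarct, IL-4, KO and WT peaks, and 2 each in sham and untreated. Hsp90b1/Ttc41, with the gene of the HSP90 of the endoplasmic reticulum, had 32.7 over 1384 bp in infarct with no sham peak, and 26.4 in IL-4 against 1.40 in untreated. Core histone genes, which lie in clusters, had 43 of 70 genes in 28 pairs, 10 divergent and 10 tandem. Infarct and IL-4 NPM1 were found at 27 of the 28 pairs each, sham at 2 and untreated at 10, and H3K4me3 at 28 in KO and 27 in WT. The untreated share, 10 of 28, stands beside 4.73% of all pairs. At H3c15/H2ac19 NPM1 covered 1463 bp in infarct against 200 bp in sham, and 1754 bp in IL-4 against 379 bp in untreated. Near-identical histone genes can share reads, and the sources used here do not say how such reads were placed.

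Genes of mTORC1 and TSC signalling, which the study's named genes belong to, had 11 of 38 members in 13 pairs. Of its 4 divergent pairs 3 had infarct and IL-4 NPM1, 0 sham, 1 untreated, and 4 each KO and WT H3K4me3. The exception was Tsc2/Nthl1 on chromosome 17, with 3 bp between the start of the tuberin gene, which restrains mTORC1, and that of a DNA glycosylase. H3K4me3 covered 1620 bp there with 78.1 in KO and 958 bp with 6.61 in WT, and no NPM1 list had a peak. Cep57l1/Sesn1, with the gene of the leucine sensor Sestrin1, had NPM1 at 20.7 over 888 bp in infarct and 28.1 over 932 bp in IL-4. Lamtor2/Ubqln4, with a subunit of the Ragulator that tethers mTORC1 to lysosomes, had 16.9 over 1168 bp in infarct and 21.1 over 922 bp in IL-4 against 1.40 over 200 bp in untreated. Mtor/Exosc10, a tandem pair with the end of Mtor before the start of Exosc10, had H3K4me3 at 90.9 over 1234 bp in KO and 13.9 over 646 bp in WT and no NPM1 peak. Npm1 and Kdm5b are in no pair.

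Macrophage genes were listed too. Of 35 listed identity genes 5 (14.3%, near the 17.5% of all genes) were in 5 pairs, none divergent, and of 34 listed inflammatory and IL-4 response genes none was. Cd68/Eif4a1, with the lysosomal glycoprotein used as a macrophage marker, is a tandem pair with NPM1 at 25.4 over 1095 bp in infarct and 22.7 over 857 bp in IL-4 and no sham or untreated peak. Of 17 genes of antigen processing 5 were in 5 pairs, 1 of them divergent, the Psmb9/Tap1 pair. Purine and one-carbon metabolism had 5 of 21 genes in 7 pairs, and both divergent ones, Mthfd2/Mob1a and Gart/Son, had infarct, IL-4, KO and WT peaks and no sham or untreated peak. Zinc finger genes had 42 of 388 members (10.8%) in 38 pairs, 12 of them divergent, with infarct NPM1 at 8 and IL-4 at 9, beside 87.1% of all divergent pairs in each, sham and untreated at 0 and H3K4me3 at 12 in KO and in WT. Keratins and keratin-associated proteins had 4 of 109 genes in 2 pairs, both tandem, with 1 sham and 1 WT H3K4me3 peak among them and none in the other lists.

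Other pairs taken from the literature met the distance rule in 14 of 38 cases. Ranbp1/Trmt2a, of the Ran GTPase cycle and tRNA methylation, had infarct NPM1 over 1543 bp with 12.0 and IL-4 NPM1 over 1347 bp with 21.6. Sdhaf2/Cpsf7 had 24.5 over 1042 bp in infarct and 30.3 over 960 bp in IL-4. Mcm4/Prkdc, of the replicative helicase and of end joining, and Emc8/Cox4i1 are pairs of unknown strand, with 24.6 and 9.64 in infarct against no sham peak, and 11.5 and 16.1 in IL-4. Mcm4/Prkdc had 1.40 in untreated and Emc8/Cox4i1 no peak there. Spib/Pold1, a tandem pair, had an IL-4 peak of 0.987 alone.

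A few divergent pairs carried no H3K4me3. There were 23 of 565 with a peak in neither H3K4me3 list, and 17 (3.01%) with no peak in any of the 6. Of all 16456 starts with a known strand, 5974 had a peak in neither H3K4me3 list and 4978 (30.3%) in none of the 6. Without predicted and receptor genes the 17 pairs were Duox2/Duoxa2, Kirrel2/Nphs1, Best1/Rab3il1, Mlc1/Mov10l1, Bhmt2/Dmgdh, Tfpi2/Gngt1, Ngef/Neu2, Ctnnd1/Btbd18, Cd160/Pdzk1, Slc30a3/Dnajc5g, Gfy/Pth2, Dusp3/Cfap97d1, Mpig6b/Ly6g6c and Rnf151/Rps2, named after their values were seen. They range from Duox2/Duoxa2, a hydrogen peroxide-producing oxidase of the thyroid and its maturation factor, to Rnf151/Rps2, with the gene of a protein of the small ribosomal subunit. Gene ends are the outermost annotated positions. A listed start lay within 100 bp of them for 83.8% of genes of divergent pairs and 76.6% of isolated starts. Whether the ends of these 17 pairs are the starts in use in macrophages was not tested. Of the 23, infarct NPM1 was found at 2, Mup15/Mup-ps12 with 2.72 and Deaf1/Eps8l2 with 1.04. The gap of Ngef/Neu2 printed above has no CpG in 156 bp, whereas that of Duox2/Duoxa2 has a ratio of observed to expected CpG of 0.673 and a TATAAA match.

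Another 28 divergent pairs had H3K4me3 in KO and WT and no NPM1 peak in infarct or IL-4. They include Sdha/Ccdc127, with the flavoprotein subunit of succinate dehydrogenase, where H3K4me3 reached 171 in KO and 26.8 in WT. Lig4/Abhd13, with the ligase of end joining, had 68.2 in KO and 11.4 in WT, and Helq/Mrps18c 118 in KO and 11.5 in WT. Cir1/Scrn3 and Esf1/Ndufaf5 had 101 and 90.7 in KO, with 18.6 and 20.6 in WT. These 5 were named after their values were seen, and Tsc2/Nthl1 above is another of the same kind. Of all 2008 pairs 15 (0.747%) had a peak in all 6 lists, against 68 of 21629 isolated ends (0.314%) and 158 of 41112 gene ends (0.384%). The 6 divergent ones include Fkbp3/Fancm, Tpmt/Kdm1b, Gamt/Dazap1 and Hdlbp/Septin2.

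The sequences of divergent promoters differed from those of isolated starts. RefSeq promoters, from 250 bases before to 50 after a start, had a median ratio of observed to expected CpG of 0.843 at 1123 genes of divergent pairs, against 0.523 at the 9144 isolated starts and 0.597 at all 16456 genes. A ratio of 0.6 or more was found in 85.6% of divergent genes and 45.1% of isolated starts. The motif CCGGAAG, the core of ETS factor sites, was found in 27.2% of divergent promoters, 8.87% of isolated ones and 12.3% of all, GGGCGG, the core of Sp1 sites, in 66.3%, 44.7% and 47.3%, and CCAAT in 45.2%, 38.6% and 39.1%. GCATGCGC, the core of NRF1 sites, was found in 6.59%, 2.96% and 3.65%, and GATGGCGG, the core of YY1 sites, in 6.06%, 1.67% and 2.32%. TATAAA was less frequent at divergent pairs, in 5.88%, 15.4% and 13.5%. Both strands were searched, and matches of different motifs may overlap. In at least 332 of the 565 divergent pairs the listed promoters of both genes overlap by over 50 bp, so that a match can be counted for both genes. Pairs with the longer gaps were not examined for this overlap.

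Among promoters of like CpG content the share of marked pairs was higher than that of isolated starts at ratios of 0.3 or more in the 4 deeper lists. The windows of pairs hold 2 starts against 1. The value for 2 independent starts was not worked out by CpG content, so an excess beyond it is not shown here. Among promoters with a CpG ratio of 0.6 or more, taken for pairs as the mean of the 2 genes, infarct NPM1 was found at 433 of 481 divergent pairs (90.0%, 87.0 to 92.6%), against 2609 of 4122 isolated starts (63.3%, 61.8 to 64.8%). At ratios of 0.3 to 0.6 it was found at 56 of 70 divergent pairs (80.0%, 68.7 to 88.6%), against 31.5% of isolated starts (29.3 to 33.7%), and under 0.3 at 3 of 14 (4.66 to 50.8%), an interval that holds the 12.7% of isolated starts. For KO H3K4me3 the shares were 98.3% against 85.2% at 0.6 or more and 94.3% against 49.1% at 0.3 to 0.6. For IL-4 they were 90.2% against 62.3% and 75.7% against 30.6%, and for WT H3K4me3 97.5% against 77.0% and 63 of 70 against 39.7%. Under 0.3 WT H3K4me3 was found at 2 of 14 divergent pairs, against 485 of 3224 isolated starts, and at 0.3 to 0.6 the sham shares were 5.71% against 6.06%. Divergent pairs with GGGCGG in a promoter had an infarct peak in 89.3% (393 of 440), against 79.2% (99 of 125) without it. With CCGGAAG the shares were 88.2% and 86.5%. For GCATGCGC, held by 49 pairs, they were 93.9% (83.1 to 98.7%) and 86.4% (83.2 to 89.3%). For GATGGCGG, also held by 49 pairs, they were 95.9% (86.0 to 99.5%) and 86.2% (83.0 to 89.1%). With CCAAT the share was 84.9% (80.5 to 88.7%), against 89.7% (85.3 to 93.2%) without it, and with TATAAA 76.0% (61.8 to 86.9%), against 88.2% (85.0 to 90.8%). The intervals overlap for each of these motifs other than GGGCGG.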

How the data were processed

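CUT&Tag libraries of mouse macrophages were sequenced by the authors, and 6 peak lists are analysed here, 4 for NPM1 and 2 for H3K4me3, while 4 libraries are not analysed here. The submitters' processing notes name bcl2fastq 2.17, Bowtie2, MACS2 2.2.7.1, deepTools and mm10, while the sources used here give no settings, duplicate removal, control library or spike-in. Each deposited peak carries a fold (ratio) over background, −log10 p, −log10 q and a whole-number score of 10 times −log10 p, in the layout of MACS2 output. The smallest −log10 p in the lists is between 2.01 and 2.02, and 5.01 to 27.8% of peaks have q above 0.05, so weak peaks are included. The values are the authors' own, ranked within a list, and comparing such values across lists is no measure of change.

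Genes were the protein-coding genes of the 19 autosomes in the RefSeq table of GRCm38.p6, without 105 whose positions lie below 3 Mb. Strand came from the RefSeq promoter table (80.1% of genes, none on chromosome 18), and gene ends are the outermost annotated positions. Windows of 2001 bp were intersected with the peaks by 1 bp or more, with Python 3.11.15, pandas 2.3.3, numpy 2.4.6 and scipy 1.17.1, and drawn with matplotlib 3.10.9. Shares have exact Clopper-Pearson 95% intervals. The method recovered 600 of 600 planted pairs and 300 of 300 planted peaks in simulated data. With 1 library per group no test was possible. Among the 2008 pairs, 92 windows held 3 or more gene ends. Named pairs were those with the study's genes, known pairs, up to 5 per list and class by −log10 q, up to 5 per direction of a comparison whose other library had none within 5 kb, and up to 3 per gene list. The members and lists were chosen with earlier results of these data known.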

Additional observations from a re-analysis of the deposited data

Results flagged for a closer look

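The difference between pairs and isolated ends was not alike in all NPM1 lists, and the difference between lists was not tested. At divergent pairs the share with a peak stood 47.9 percentage points above isolated starts in infarct and −0.799 points from them in sham, and 47.8 points above in IL-4 and 1.86 points above in untreated. At convergent pairs it stood 12.9 points above isolated other ends in infarct and 3.56 points in sham, and 14.7 points above in IL-4 and −0.567 points from them in untreated. The background was 3.03 reads per position in infarct, 1.29 in sham, 4.18 in IL-4 and 1.31 in untreated, and its part in this was not tested.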

How the results depend on the processing

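Of 181 values recomputed under alternatives, 123 moved little, 56 moved and 2, both for sham convergent pairs, changed sign from a difference whose interval left out 0. Of differences whose interval held 0, untreated divergent (1.86 points) became −0.13, sham divergent (−0.799) 0.471 and untreated convergent (−0.567) 0.12; 2 alternatives, for the own other end of a gene and for windows with 3 or more gene ends, were chosen after seeing the data. The divergent excess over isolated starts was above 0 in every alternative in the infarct, IL-4, KO and WT lists (16.3 to 50.8, 17.5 to 50.5, 30.7 to 46.2 and 36.9 to 55.4 points), and the convergent excess over isolated other ends likewise (2.51 to 15.5, 2.55 to 17.0, 7.19 to 19.3 and 3.27 to 10.1 points). The cause of each move below was not tested.

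With windows of 500 bp on either side the divergent excess was 50.8 points in infarct and 49.7 in WT H3K4me3, and the convergent excess 7.36 in infarct, 6.59 in IL-4, 7.19 in KO and 3.63 in WT. The count of pairs in sham only became 24, in untreated only 9 and in WT H3K4me3 only 27, and the divergent excess in median covered length 137 bp in infarct, 200 bp in KO and 164 bp in WT.

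With −log10 q of 5 or more the divergent excess was 44.1 points in infarct, 42.4 in IL-4, 46.2 in KO and 55.4 in WT, and the convergent excess 2.51 in infarct, −0.435 in sham, 2.55 in IL-4, 8.76 in KO and 3.27 in WT. Counts became 701 in infarct only, 1 in sham only, 0 in untreated only and 2 in WT H3K4me3 only, and the excess in covered length 74.5 bp in infarct, 59 bp in IL-4, 350 bp in untreated, from 1 divergent pair and 15 isolated starts, and 159 bp in WT.

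With 200 bp of peak required, the convergent excess was 8.76 points in infarct, 10.5 in IL-4 and 11.8 in KO. With ends 500 bp or less apart, 30 pairs were in sham only, 10 in untreated only, 106 in KO H3K4me3 only and 41 in WT H3K4me3 only, among fewer pairs. With isolation of 20 kb the sham difference in covered length was −11.5 bp. Without predicted and receptor genes the divergent excess was 41.8 points in infarct, 42.4 in IL-4, 33.5 in KO and 39.1 in WT.

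With lists of equal length the divergent excess was 49.4 points in WT, the convergent excess 6.74 in infarct, 5.44 in IL-4 and 4.4 in WT, 20 pairs were in WT H3K4me3 only, and the IL-4 excess in covered length was 106 bp. Among windows with WT H3K4me3 the divergent excess was 16.3 points in infarct, 17.5 in IL-4 and −0.13 in untreated, and the convergent excess 4.53 in infarct, −12.7 in sham, 7.72 in IL-4 and −6.93 in untreated. With the own other end of a gene counted, the divergent excess was 40.1 points in infarct, 40.6 in IL-4, 30.7 in KO and 36.9 in WT.

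No paired analysis was possible because each group has 1 library and the labels give no replicate numbers. Depth limits the sham and untreated lists, whose background was 1.29 and 1.31 reads per position, and covered length moves with how much was called.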
